A study of Mus musculus with 10 samples.

Results

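The core pluripotency factors that naive and primed cells share were followed across 5 sorted fractions of mouse embryonic stem (ES) cells. The genes are Pou5f1, Sox2, Sall4, Utf1, Lin28a and Foxd3, taken by symbol from the deposited table, which gave 1 row each and thus 6 of 32361 rows. All fractions came from E14Tg2a.4 ES cells, a line that lacks functional Hprt. One line carried knock-in fluorescent reporters at both Esrrb and Tbx3 and was sorted into cells negative for both (double-negative), cells positive for Esrrb alone (single-positive) and cells positive for both (double-positive). In the other line a piggyBac reporter driven by a piece of the Zscan4c promoter separated Zscan4c-positive from Zscan4c-negative cells, so that sort reads promoter activity and not the endogenous gene. The labels list 2 libraries per fraction, collected on different days, 10 in all, but the table holds 1 FPKM value (mapped fragments scaled to transcript length and library total) per gene and fraction. There is therefore no replicate spread, SD or test for any value below, and read depth is unknown. The sorted genes ran in the order of the labels: from double-negative to double-positive cells Esrrb had 43.3, 177 and 243 FPKM and Tbx3 0.638, 1.75 and 12.6, and Zscan4c had 0.255 FPKM in Zscan4c-negative and 120 in Zscan4c-positive cells. FPKM totals ran from 507495 to 552117. Culture medium, the use of feeder cells, the sex of the cells and whether each reporter line is 1 clone are not stated in the labels.

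Pluripotency is held by a small circuit in which the POU factor OCT4, the product of Pou5f1, and the HMG-box factor SOX2 bind DNA side by side and activate each other, themselves and many other ES cell genes. Naive ES cells add factors such as ESRRB, TBX3 and KLF4 to this pair, whereas formative and primed cells drop those and keep OCT4 and SOX2 with partners such as OTX2. SALL4 is a zinc-finger factor that works with OCT4 and recruits the NuRD chromatin complex, UTF1 is a chromatin-bound protein of undifferentiated cells, LIN28A is an RNA-binding protein that blocks let-7 microRNA maturation, and FOXD3 is a forkhead factor active in ES cells and at the exit from the naive state.

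The sequences just upstream of 4 of the genes are shown. Pou5f1 was taken as the gene at the top of the circuit, and Sox2 for the widest difference along the Esrrb and Tbx3 series. Utf1 was the one furthest down in Zscan4c-positive cells and Foxd3 the one that differed most in the Tbx3 step. Each line gives the 250 bases before the annotated start site, 5′ to 3′ on the gene's strand, from RefSeq (GRCm38.p6). Of the 6 genes, 5 were matched in that RefSeq set. The gene not matched is Sall4, which had the widest ratio of highest to lowest level of the 6. The positions are chr17:35505782-35506031 for Pou5f1 (the first of its 2 listed start sites), chr3:34649745-34649994 for Sox2, chr7:139943606-139943855 for Utf1 and chr4:99656049-99656298 for Foxd3, all on the plus strand. Capitals mark exact matches, on either strand, to ATGCAAA (a core of the octamer that POU factors bind), CATTGT or ACAAAG (forms of the SOX site), TCAAGG (a half-site of orphan nuclear receptors such as ESRRB and NR5A2) and GGGCGG (the GC box).
Pou5f1: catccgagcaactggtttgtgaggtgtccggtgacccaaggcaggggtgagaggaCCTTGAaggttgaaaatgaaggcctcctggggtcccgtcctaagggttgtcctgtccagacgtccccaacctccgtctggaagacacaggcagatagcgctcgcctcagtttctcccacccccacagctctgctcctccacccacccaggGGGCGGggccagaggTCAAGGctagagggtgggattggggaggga
Sox2: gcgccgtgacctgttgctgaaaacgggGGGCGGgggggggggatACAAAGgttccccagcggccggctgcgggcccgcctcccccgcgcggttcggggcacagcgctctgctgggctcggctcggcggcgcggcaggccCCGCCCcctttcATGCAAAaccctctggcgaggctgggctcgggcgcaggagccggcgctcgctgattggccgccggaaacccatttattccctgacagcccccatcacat
Utf1: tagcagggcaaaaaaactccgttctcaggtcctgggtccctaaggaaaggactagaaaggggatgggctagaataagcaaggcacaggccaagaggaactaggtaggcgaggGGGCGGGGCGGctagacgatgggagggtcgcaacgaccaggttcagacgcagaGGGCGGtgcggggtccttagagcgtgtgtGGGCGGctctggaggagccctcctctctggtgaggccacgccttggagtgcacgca
Foxd3: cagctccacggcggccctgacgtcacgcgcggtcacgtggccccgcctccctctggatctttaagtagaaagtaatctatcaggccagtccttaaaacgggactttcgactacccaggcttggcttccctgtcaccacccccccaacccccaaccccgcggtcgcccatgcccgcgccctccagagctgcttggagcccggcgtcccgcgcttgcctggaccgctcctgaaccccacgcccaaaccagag
Sox2 held 1 ATGCAAA match, 99 bases before the RefSeq start site, as well as 1 ACAAAG and 2 GC boxes. Pou5f1 held 2 TCAAGG matches, the nearer beginning 30 bases before the start site, and 1 GC box beginning 45 bases before it. Utf1 held 4 GC boxes, of which 2 adjoin and share a base, and Foxd3 held none of the searched letters. Among 32851 windows of the same length in that set, 4.12% held ATGCAAA, 10.7% CATTGT, 16.5% ACAAAG, 12.5% TCAAGG and 32.7% GGGCGG. These matches describe letters and show no binding. Start sites differ between annotations: GENCODE M21 places that of Sox2 410 bases downstream of the RefSeq site used here, and those of Utf1 and Pou5f1 inside these windows. The windows were rich in G and C, at 62.0% for Pou5f1, 72.0% for Sox2, 61.6% for Utf1 and 65.6% for Foxd3, against a median of 52.4% over all windows.

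In the GENCODE M21 annotation of mm10, all 6 are protein-coding genes. Pou5f1 lies on chromosome 17 from 35506018 to 35510772 (plus strand), Sox2 on chromosome 3 from 34650405 to 34652461 (plus), Sall4 on chromosome 2 from 168748332 to 168767943 (minus), Utf1 on chromosome 7 from 139943789 to 139945112 (plus), Lin28a on chromosome 4 from 134003330 to 134018841 (minus) and Foxd3 on chromosome 4 from 99656299 to 99658622 (plus). Sox2 sits in an intron of the noncoding gene Sox2ot, which was at 0.626 to 0.913 FPKM over the fractions, so little signal was assigned to that host. Foxd3 shares exon sequence with the microRNA gene Gm23366 on the same strand. Exons of Pou5f1, Sall4 and Lin28a overlap exons of opposite-strand noncoding genes (Gm19553, Gm14261 and Gm13061). The labels do not say whether strand was kept, so reads of such pairs cannot be told apart. Pou5f1 also has processed copies elsewhere in the genome that can take some of its reads. The copy with a row in the table, Gm5712, was listed at 0 in 4 fractions and at 0.0214 FPKM in Zscan4c-positive cells.

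Pou5f1 was among the most abundant messages of every fraction. From double-negative through single-positive to double-positive cells it was at 1987, 2196 and 2739 FPKM, and Zscan4c-negative and Zscan4c-positive cells had 2762 and 2437. Over the 19176 rows with a protein-coding symbol, it ranked between place 8 and place 10. Such ranks are approximate, because some genes may be understated here: Gapdh, a highly expressed glycolytic gene, was listed at 0.845 to 1.24 FPKM. Whether its processed copies took its reads was not tested. The lowest Pou5f1 level, in double-negative cells, was still 72.5% of the double-positive level.

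Sox2, its binding partner, had 209, 347 and 437 FPKM along that series from double-negative to double-positive and at 363 and 341 FPKM in Zscan4c-negative and Zscan4c-positive cells. Double-negative cells thus stood apart as the low fraction, while the other 4 lay between 341 and 437 FPKM.

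Sall4 had 61.6, 81.7 and 106 FPKM along the series, 102 in Zscan4c-negative and 144 in Zscan4c-positive cells. It was the only one of the 6 whose highest value fell in Zscan4c-positive cells.

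Utf1 was at 356, 362 and 417 FPKM in the double-negative, single-positive and double-positive fractions, and at 501 in Zscan4c-negative and 266 in Zscan4c-positive cells. Its extremes were therefore the 2 fractions of the Zscan4c line. Lin28a was at 189, 192 and 219 FPKM in the first 3 and at 218 and 166 in the Zscan4c-negative and Zscan4c-positive fractions. Its ratio of highest to lowest level was the smallest of the 6.

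Foxd3 was the least abundant. It was at 27.2, 23.2 and 44.2 FPKM in double-negative, single-positive and double-positive cells and at 27.5 and 22.5 FPKM in Zscan4c-negative and Zscan4c-positive cells. One fraction, double-positive, stood above 4 that lay between 22.5 and 27.5 FPKM.

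**Figure D1:**
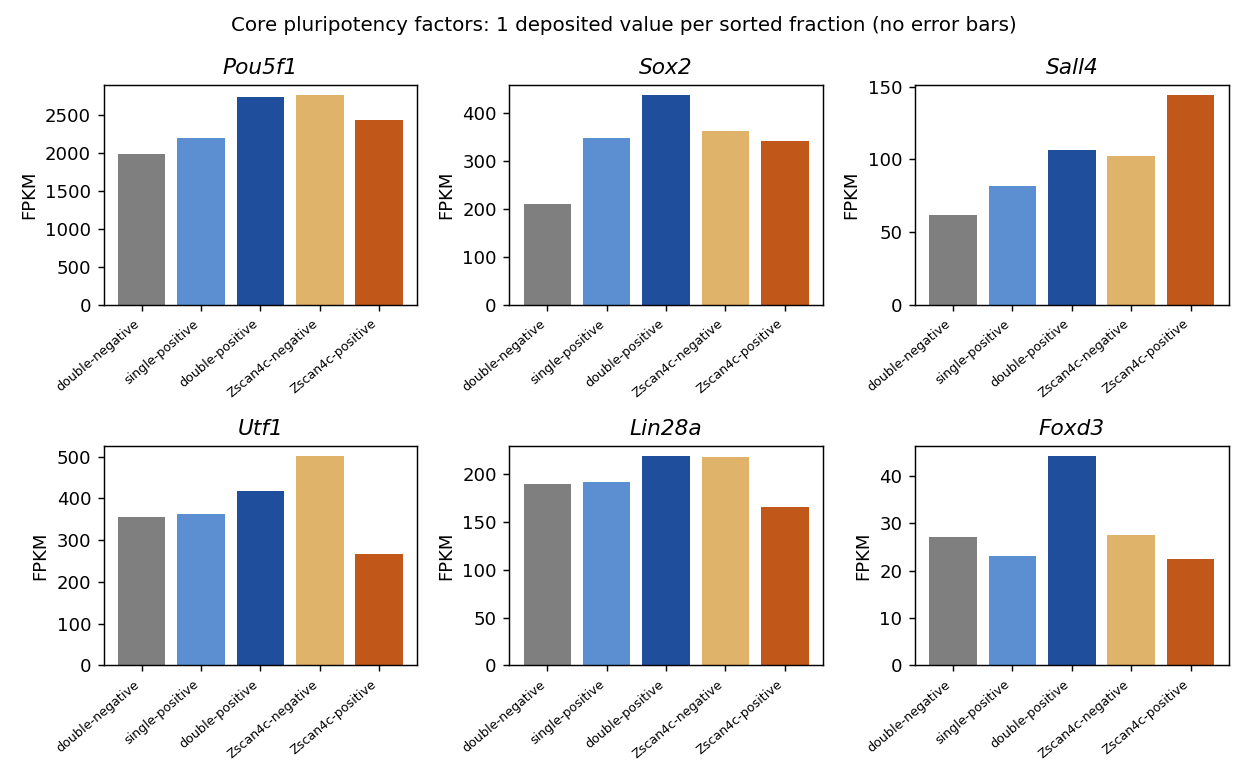
FPKM of each of the 6 genes (vertical axes, each from 0) in the 5 sorted fractions (bars, 1 deposited value each, no error available). Sox2 is lowest in double-negative cells (209 FPKM), Utf1 in Zscan4c-positive cells (266 FPKM), and Foxd3 is highest in double-positive cells (44.2 FPKM).

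By level, which FPKM allows to be set side by side because it is per length of transcript, the order was Pou5f1, Utf1, Sox2, Lin28a, Sall4 and Foxd3 in double-negative, single-positive and Zscan4c-negative cells. In double-positive and Zscan4c-positive cells Sox2 stood above Utf1, and the rest of the order was the same. The neighbours Utf1 and Sox2 were at 362 and 347 FPKM in single-positive cells and at 417 and 437 in double-positive cells, gaps that cannot be judged without replicates. Across the 5 fractions the highest level was 1.32 times the lowest for Lin28a, 1.39 times for Pou5f1, 1.88 times for Utf1, 1.96 times for Foxd3, 2.09 times for Sox2 and 2.34 times for Sall4. Among 4979 protein-coding rows that reached 20 FPKM in a fraction and were above 0 in all, the median of this ratio was 1.35 and its quartiles ran from 1.22 to 1.65. Pou5f1 and Lin28a lay between those quartiles, with 55.2% and 44.7% of rows varying less. Sall4, Sox2, Foxd3 and Utf1 lay above them, with 88.5%, 85.8%, 83.9% and 82.2% of rows varying less.

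The step from double-negative to single-positive cells asks which genes go with Esrrb while Tbx3 stays low. Differences are of log2(FPKM + 1), a scale that understates those of low genes, and a gene counts as higher or lower where it differs at least 2-fold on it. Sox2 was higher by 0.73, a ratio of 1.66 between the FPKM values, and Sall4 by 0.40, a ratio of 1.32. Pou5f1 was higher by 0.14, Utf1 by 0.02 and Lin28a by 0.02, while Foxd3 differed by -0.22. None of the 6 reached 2-fold in either direction. Of the 13595 rows with at least 1 FPKM in a fraction, 1.82% passed 2-fold upward and 1.43% downward, so a count of 0 among 6 does not set the group apart from the table. The median of the 6 was 0.08, beside -0.02 over all rows. Utf1 and Lin28a were close to that median on the deposited scale, 0.05 and 0.04 above it.

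The naive factors, which ESRRB and its partners are known to drive, give the contrast: 10 of 14 were at least 2-fold higher in single-positive cells, with a median of 1.79, and none lower. Nanog was at 278 against 79.8 FPKM. Of the 14, Esrrb and Tbx3, are the sorted genes. Formative and primed genes had 8 of 11 compared members at least 2-fold lower and a median of -1.50. The 12 other factors shared by naive and primed cells, a list that includes the growth factor co-receptor gene Tdgf1 and the RNA-binding factor gene Trim71, had none past 2-fold and a median of 0.25. All these lists were chosen with results of these data known, so their counts are descriptions.

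The step from single-positive to double-positive cells asks what goes with Tbx3 once Esrrb is on. All 6 core genes were higher, and none reached 2-fold, against 0.346% of all rows that passed it upward and 6.94% downward. Foxd3 differed most, by 0.90, with 44.2 against 23.2 FPKM, a ratio of 1.91. The other 5 were closer together: Sall4 differed by 0.38, Sox2 by 0.33, Pou5f1 by 0.32, Utf1 by 0.20 and Lin28a by 0.19. The median of the 6 was 0.33, beside 0.01 over all rows, 0.26 over the other shared factors and 0.48 over the naive factors. With equal totals outside a set of fibroblast and T-cell profile rows described below, the 6 differences ranged from 0.09 for Lin28a to 0.81 for Foxd3, all still above 0. Such scaling changes the columns as a whole and does not remove RNA of other cell types.

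Between the ends of the series, double-positive against double-negative cells, all 6 were higher and Sox2 alone passed 2-fold, with a difference of 1.06 and 437 against 209 FPKM. Sall4 was higher by 0.78, a ratio of 1.73, and Foxd3 by 0.68, a ratio of 1.62. Pou5f1 was higher by 0.46, Utf1 by 0.22 and Lin28a by 0.21. Of all rows, 3.81% passed 2-fold upward and 12.2% downward. The Sox2 count rests on the scaling of the columns: its difference was 0.94 with equal FPKM totals and 0.91 with equal totals outside the profile rows, which leaves 0 of 6 past 2-fold. Those scalings move the median of all rows by -0.11 and -0.14. Relative to that median, Sox2 was at 1.06 under each of them and at 1.08 under the deposited scale. The naive list had 14 of 14 genes at least 2-fold higher, with a median of 2.41. It includes Esrrb and Tbx3, whose reporters defined these ends. The formative list had 10 of 11 at least 2-fold lower, with a median of -1.76. The core genes, with a median of 0.57, lay between these 2 lists and close to the other shared factors, at 0.52.

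**Figure D2:**
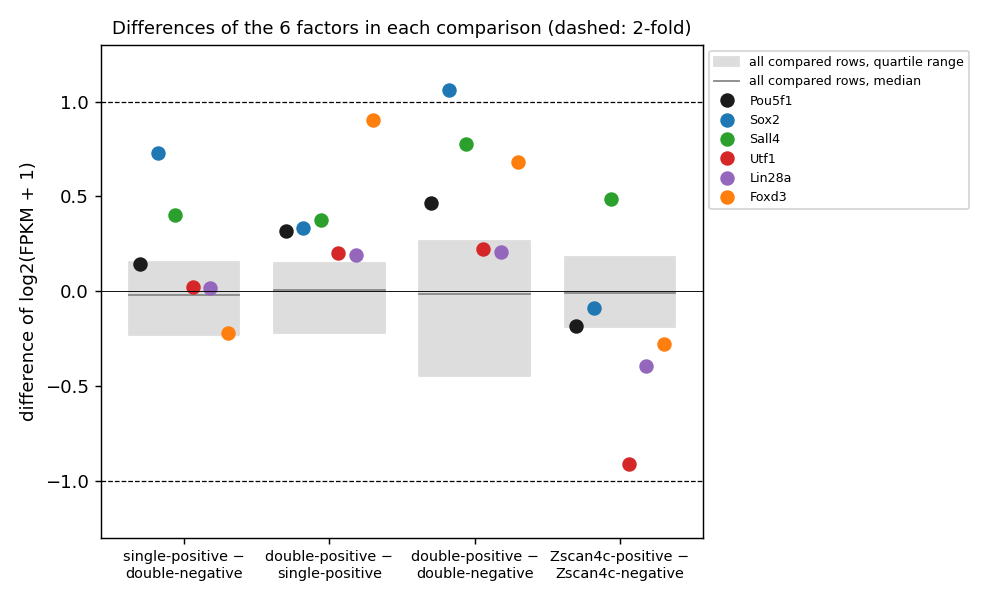
Differences of log2(FPKM + 1) (vertical axis) of the 6 genes (points) in the 4 comparisons (horizontal axis), over the range between quartiles (grey band) and median (grey line) of 13595 rows, with dashed lines at 2-fold. Sox2 in double-positive against double-negative cells (1.06) is the one point past a dashed line, and Utf1 in the Zscan4c sort (-0.91) is the lowest.

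Double-negative and single-positive cells also held transcripts of other cell types, which bears on the first 3 comparisons. The 13 fibroblast markers summed to 2646 FPKM for double-negative cells, 1997 for single-positive cells, and 370, 312 and 332 for double-positive, Zscan4c-negative and Zscan4c-positive cells. The collagen gene Col1a1 was at 477, 348, 6.32, 5.61 and 7.0 FPKM in that order, while the fibroblast genes Dcn and Lum were below 1 FPKM in all 5, Lum being listed at 0 in both Zscan4c fractions. The 8 T-cell markers summed to 526, 379, 30.9, 21.5 and 19.6 FPKM. Hprt, which E14Tg2a cells lack, was at 28.0, 19.3, 0.954, 0.717 and 0.349 FPKM. A set of 804 rows was picked by levels across the fractions and not by marker genes. These rows had at least 1 FPKM in double-negative cells and at least 0.5 of that level, but no more than it, in single-positive cells. Double-positive and both Zscan4c fractions had at most 0.25 of it. The set made up 2.2% of the double-negative and 1.49% of the single-positive FPKM total, against 0.109%, 0.108% and 0.115% in the rest. The rule fixed the direction of that contrast. The part of RNA of other cell types in the differences of the 6 genes was not tested. The scaling values above cannot show it, because that scaling sets aside only the picked rows. In sorted bulk RNA, fewer cells expressing a gene and less of its RNA per cell cannot be told apart. Markers of primitive endoderm (7 genes) summed to 12.4, 6.70, 1.99, 2.93 and 4.00 FPKM and those of trophectoderm (6 genes) to 21.7, 8.55, 5.31, 9.17 and 8.69, far under the 2420 to 4407 FPKM of the 5 ES cell markers, 2 of which are Pou5f1 and Sox2. The 5 neural markers summed to 35.7, 67.5, 71.5, 71.1 and 97.1 FPKM, low in double-negative cells as Sox2 was, a gene that neural progenitors also express. They did not move as 1 group: between the ends the neural genes Pax6 and Tubb3 were higher by 1.32 and 1.13, while Nes differed by -1.37 and Sox1 by -0.75. Their part in the Sox2 difference was not tested.

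The Zscan4c sort compares cells with the transient state that carries transcripts of the 2-cell embryo with cells of the same line outside it. Here 5 of the 6 core genes were lower and Sall4 was higher, and none passed 2-fold, against 3.46% of all rows upward and 0.875% downward. Utf1 differed most, by -0.91, with 266 against 501 FPKM, so that Zscan4c-negative cells had 1.88 times as much. Lin28a differed by -0.39, Foxd3 by -0.28, Pou5f1 by -0.18 and Sox2 by -0.09. Sall4 was higher by 0.49, at 144 against 102 FPKM, a ratio of 1.41. The 6 had a median of -0.23, beside -0.01 over all rows. Over the pseudocounts and column scalings tried, the Utf1 difference stayed between -0.96 and -0.90 and that of Sall4 between 0.43 and 0.49. The 6 markers of the 2-cell-like state summed to 463 FPKM in Zscan4c-positive and 0.530 in Zscan4c-negative cells, and fibroblast and T-cell sums differed little between these fractions, as given above.

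Among the other shared factors, 1 of 12 passed 2-fold in this sort: Dppa2, which encodes an SAP-domain chromatin protein, was at 124 against 48.6 FPKM. Their median was -0.10. Its partner gene Dppa4 was at 84.3 against 111 FPKM. Naive factors had 2 of 14 at least 2-fold higher, namely Tbx3 (35.3 against 11.4 FPKM) and Nanog (522 against 257 FPKM), with a median of 0.35, and formative and primed genes had 5 of 11 at least 2-fold lower, with a median of -0.83.

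**Figure D3:**
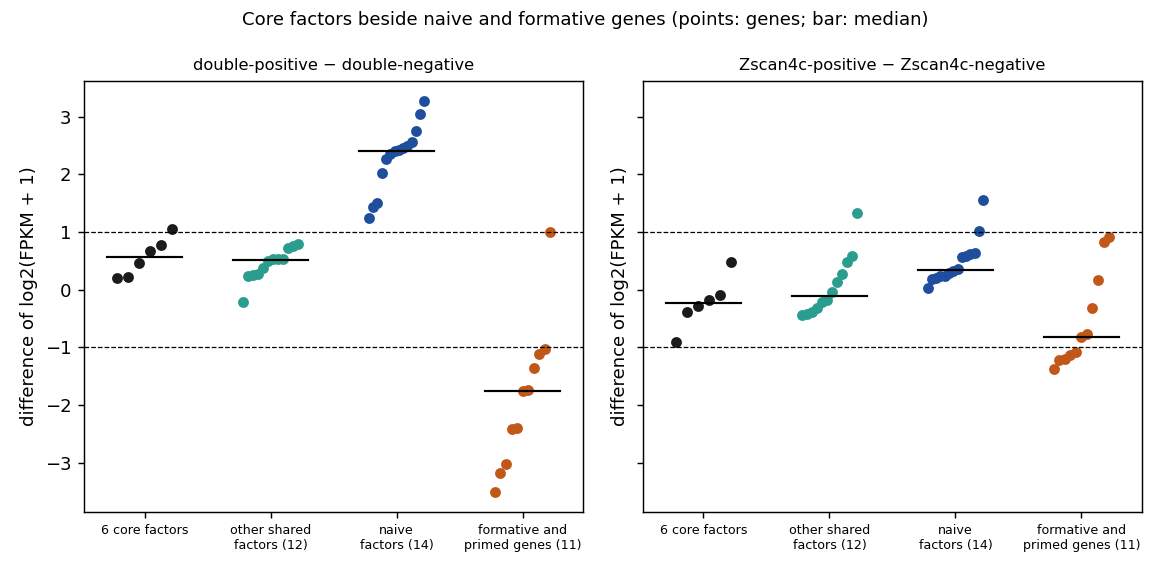
Differences of log2(FPKM + 1) (vertical axes) of the 6 core factors, 12 other shared factors, 14 naive factors and 11 formative and primed genes (points, with the median as a bar) between double-positive and double-negative cells (left) and in the Zscan4c sort (right), dashed lines at 2-fold. On the left the core factors (median 0.57) lie between naive (2.41) and formative genes (-1.76). The naive factors include the sorted genes Esrrb and Tbx3.

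The 2 reporter lines can be set side by side in the double-positive and Zscan4c-negative fractions, although line and sort cannot be told apart. Zscan4c-negative cells were not sorted for the naive state and had more RNA of most formative and primed genes. Pou3f1 was at 23.5 against 3.66 FPKM in double-positive cells and Dnmt3a at 36.4 against 15.9. Otx2 differed little, at 20.5 against 17.3 FPKM, and Zic2 went the other way, at 28.1 against 47.9. Double-positive and Zscan4c-negative cells had Pou5f1 at 2739 and 2762 FPKM, Sall4 at 106 and 102, Lin28a at 219 and 218 and Sox2 at 437 and 363. Foxd3 was at 44.2 and 27.5 FPKM, a ratio of 1.61, and Utf1 at 417 and 501, a ratio of 0.831. Foxd3 in Zscan4c-negative cells was therefore at its double-negative level (27.2 FPKM) rather than at its double-positive level.

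A ratio between genes of 1 column does not depend on how that column was scaled. Relative to Pou5f1, Sox2 was at 10.5%, 15.8% and 15.9% along the Esrrb and Tbx3 series, and at 13.2% in Zscan4c-negative and 14% in Zscan4c-positive cells. The change thus lay between the first 2 fractions, and from single-positive to double-positive cells Sox2 and Pou5f1 were higher by nearly the same factor. Utf1 was at 17.9%, 16.5% and 15.2% of Pou5f1 along the series and at 18.1% in Zscan4c-negative against 10.9% in Zscan4c-positive cells. Sall4 was at 3.10%, 3.72% and 3.88%, then 3.71% and 5.91%. Lin28a was at 9.54%, 8.73% and 8.0%, then 7.89% and 6.80%. Utf1 was lower relative to Sall4 in the Zscan4c sort whatever the scaling: there were 4.89 Utf1 to 1 Sall4 in Zscan4c-negative cells and 1.85 to 1 in Zscan4c-positive cells. Foxd3 was at 1.37%, 1.06% and 1.61%, then at 0.997% and 0.925%.

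**Figure D4:**
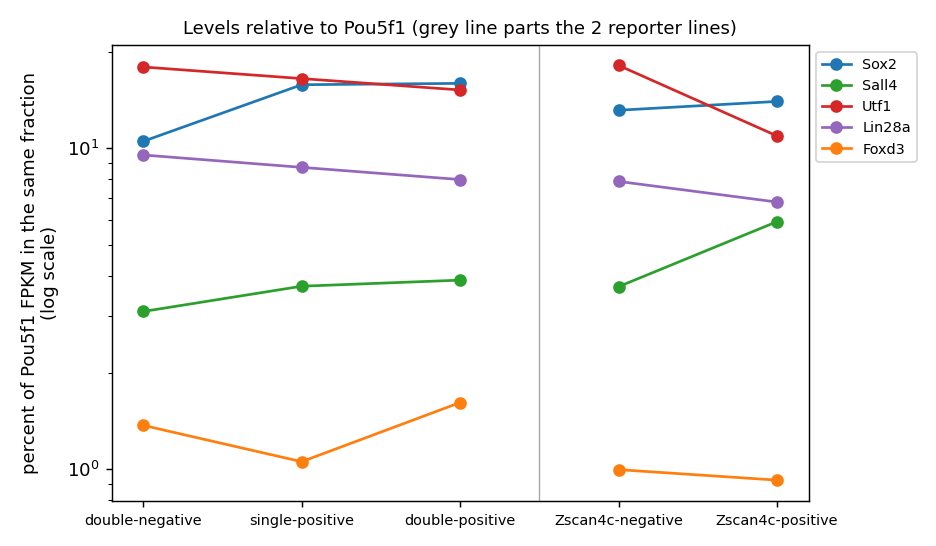
Level of Sox2, Sall4, Utf1, Lin28a and Foxd3 as a percentage of Pou5f1 FPKM in the same fraction (vertical axis, log scale), by fraction (horizontal axis), with lines joining fractions of 1 reporter line. Sox2 goes from 10.5% to 15.8% between double-negative and single-positive cells, and Utf1 from 18.1% to 10.9% between Zscan4c-negative and Zscan4c-positive cells.

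Some relatives of the core factors passed 2-fold where the factors did not. In the Esrrb step 1.82% of all rows passed it upward and 1.43% downward. Of 14 other POU genes 7 reached 1 FPKM, and of these Pou3f1, which encodes the formative factor OCT6, was lower in the Esrrb step, at 5.30 against 52.0 FPKM. Of 18 other SOX genes 12 were compared. In the Esrrb step Sox21 (8.12 against 0.916 FPKM) and Sox15 (17.4 against 5.86 FPKM) were higher, and Sox3 (2.5 against 14.8 FPKM), the closest relative of Sox2 in this set together with Sox1, and Sox11 (2.77 against 11.6 FPKM) were lower. Between the ends 2 SOX genes were at least 2-fold higher and 4 lower, against 3.81% and 12.2% of all rows. The other lower ones were Sox4, at 9.91 against 43.1 FPKM, and Sox9, at 0.131 against 3.10 FPKM. Both were low where the fibroblast sums were low, with Sox4 at 30.3 and Sox9 at 2.72 FPKM in single-positive cells, and the part of that profile in their differences was not tested. None of the 12 passed 2-fold in the Zscan4c sort, where Sox3 was at 18.8 against 9.51 FPKM. That count does not set them apart from all rows, of which 3.46% passed upward and 0.875% downward. It also rests on the added 1 FPKM, because some low genes had wider FPKM ratios. Sox9 was at 0.421 against 0.0743 FPKM, Sox10 at 1.11 against 0.243 and Sox8 at 1.46 against 0.349, while Sox1 went the other way, at 0.508 against 1.69.

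Among the SALL genes Sall1, a zinc-finger gene that is expressed in ES cells along with Sall4, was at 29.6, 52.7 and 64.5 FPKM along the series and at 54.4 and 44 in Zscan4c-negative and Zscan4c-positive cells. Sall2 ran the other way, at 11.4, 3.40 and 1.33 FPKM along the series and at 5.79 and 1.94 in the Zscan4c line. Sall4 and Sall1 were thus both higher along the Esrrb and Tbx3 series but differed in opposite directions in the Zscan4c sort. Of 3 other FOXD genes only Foxd4 reached 1 FPKM, at 2.42 in Zscan4c-negative and 1.94 in Zscan4c-positive cells.

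The NuRD complex, which SALL4 recruits, had medians of -0.02, 0.04, -0.05 and -0.08 over its 12 subunit genes in the 4 comparisons, beside -0.02, 0.01, -0.02 and -0.01 over all rows. None of the 12 passed 2-fold in the Esrrb step or the Zscan4c sort, a count that does not set them apart from the table, given the low shares of all rows above. The 1 subunit gene that passed 2-fold elsewhere was the helicase gene Chd3, at 17.9, 14.5 and 6.14 FPKM along the series and 4.25 and 6.82 in the Zscan4c line. It was lower by 1.11 or more on the log2 scale in the Tbx3 step and between the ends, where 6.94% and 12.2% of all rows were lower. Chd3 was low where the fibroblast sums were low, and the part of that profile in its differences was not tested. The LIN28 and let-7 list holds let-7 processing enzymes and RNA-binding targets. In the Esrrb step 1 of its 13 genes was at least 2-fold higher, against 1.82% of all rows. That gene was the mRNA-binding protein gene Igf2bp2, at 72.5 against 29.6 FPKM. Hmga2, a let-7 target gene at 0.735 against 2.71 FPKM and so under 5 FPKM, was the 1 lower between the ends. Lin28b, the paralog of Lin28a, was at 14.3, 8.65 and 7.64 FPKM along the series and at 11.1 and 6.40 in Zscan4c-negative and Zscan4c-positive cells, well under Lin28a throughout. Lin28a and Lin28b thus differed in opposite directions along the series, by 0.21 and -0.83 between its ends, and in the same direction in the Zscan4c sort, by -0.39 and -0.71.

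Genes with a known joint OCT4 and SOX2 element differed among themselves. Of 5 such genes besides Utf1, 3 were at least 2-fold higher at the double-positive end of the series, against 3.81% of all rows. They were Nanog, the F-box gene Fbxo15 (183 against 68.8 FPKM) and the growth factor gene Fgf4 (91.8 against 33.4 FPKM). Nanog and Fgf4 were already counted in the naive list and Zscan10 among the other shared factors, so this list is not separate from those. Lefty1, which encodes a NODAL antagonist, was at 147 against 273 FPKM, and Zscan10 at 90.7 against 63.9. In the Zscan4c sort Fbxo15 was at 921 against 162 FPKM, a difference of 2.5, whereas Utf1 was at 266 against 501 and Sox2 and Pou5f1 differed by less than 0.2. Of 5 regulators of Pou5f1, the nuclear receptor gene Nr5a2, an activator, was at 5.76, 22.4 and 26.6 FPKM along the series. It was the only one at least 2-fold higher and is also on the naive list. The repressor gene Nr6a1 was at 25, 23.4 and 27.7 FPKM. Nr2f1 and Nr2f2 were at 2.14, 1.41 and 0.206 and at 2.23, 1.45 and 0.129 FPKM along the series, low where the fibroblast sums were low, and their part in any difference of Pou5f1 was not tested.

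The genes most like each member were taken as the 3 protein-coding symbols with the smallest root-mean-square distance between the profiles of log2(FPKM + 1), each centred on its own mean over the 5 fractions, out of 9213 that reached 5 FPKM. Likeness over 5 pooled values is a description, and values of 1 column share a scale. For Sall4 they were Trim28, at a distance of 0.03, with 534, 733 and 886 FPKM along the series and 873 and 1222 in Zscan4c-negative and Zscan4c-positive cells, then Zfp600 and Gabarapl2. For Sox2 they were Pak4, Alg13 and Trip10, at distances of 0.04 each. For Pou5f1 they included Etv5 and Rpl13a, at 0.03 each, but 574 genes lay within 0.1 of its flat profile. Lin28a, with Alyref, Zfp41 and Vegfb nearest, had 534 such genes, and Sox2 had 74. For Utf1 the nearest were Pgap1, Chaf1b and S1pr2, and 4 genes lay within 0.1, while Sall4 had 21. Foxd3 had none within 0.1: its nearest were Hps4, Pskh1 and Cblc, at 0.12 to 0.13. Among the 6 themselves, the closest pair was Pou5f1 with Lin28a and the next Utf1 with Lin28a, each at 0.16, and the most distant was Sall4 with Utf1, at 0.57.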

How the data were processed

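RNA of 10 libraries was sequenced, 2 for each of 5 sorted fractions. RNA came from a Qiagen kit and libraries from the NEBNext Ultra kit, per the labels' protocols. The submitters' processing notes name the build mm10 and, with no role or order, Cuffdiff 2.2.1, Cufflinks, TopHat2 2.0.14 and bcl2fastq 1.8.4. The authors deposited FPKM values, with a single value per row for each fraction, per the file headers. Neither the gene annotation nor the way in which 2 libraries were merged is given in the sources used here. FPKM keeps no depth, so no interval could be given.

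Columns were matched to groups by the description in the labels. Rows with at least 1 FPKM in a fraction were compared as differences of log2(FPKM + 1), with a size rule of 2-fold and no p-value. The members, lists and rules were chosen with earlier results of these data known. Listed genes are named where they pass 2-fold and reach 5 FPKM, up to 4 per list and comparison, and others are given as context. Some genes these rules picked are left out of the text. The difference and the 2-fold call of the Esrrb step were tried on simulated data, with differences planted in well expressed rows and little noise. That trial checks the arithmetic only, and the other comparisons, lists and likeness were not tried there. Python 3.11.15, pandas 2.3.3, numpy 2.4.6 and matplotlib 3.10.9 were used. Other settings tried were 2 pseudocounts, 2 filters, 3 column scalings and summed rows.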

Additional observations from a re-analysis of the deposited data

How the results depend on the processing

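Of 24 differences of the 6 genes, under 8 alternatives each, 192 values in all, 2 crossed 2-fold and 4 changed sign. The 2 filters and the summed rows could not change these differences, as each gene has 1 row and lies above 5 FPKM. Only the pseudocounts and column scalings put them to a check. The 2 were Sox2 between double-positive and double-negative cells, at 0.94 with equal FPKM totals and 0.91 with equal totals outside the profile rows. The count of core genes at least 2-fold higher there was then 0 in place of 1. The sign changes were Utf1 (-0.02 and -0.03) and Lin28a (-0.03 and -0.04) in the Esrrb step under the same 2 scalings, which move all rows alike: relative to the median of all rows, then at -0.06 and -0.07, Utf1 was at 0.04 under each and Lin28a at 0.03. Counts over all rows depended on the pseudocount. With 0.1 they were 428 higher and 469 lower in place of 247 and 195 in the Esrrb step, 153 and 1460 in place of 47 and 943 in the Tbx3 step, and 835 and 280 in place of 470 and 119 in the Zscan4c sort. With 5 they were 119 and 58, 29 and 304, and 201 and 43 in these comparisons, and 261 and 591 in place of 518 and 1656 between the ends. With at least 5 FPKM in a fraction, 612 were lower in the Tbx3 step, 972 lower between the ends and 303 higher in the Zscan4c sort. Fewer rows enter that count by construction. Of 704 counts over the gene lists, 665 were unchanged or stayed within 1.5 times, and 39 moved further. Many of the unchanged ones were counts of 0 that stayed at 0. The share therefore says little about the counts above 0. No paired analysis was possible because the columns carry no replicate, and leaving out a replicate was not run for the same reason. Depth is unknown, so the precision of each value is too.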
